A study of Daphnia sinensis with 8 samples.

Results

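*Doublesex2* (*Dsx2*, unigene Cluster-5789.12340) is described here across 4 life-history stages of *Daphnia sinensis*, as 1 of the 11114 unigenes listed for the 8 RNA-seq libraries. A unigene is a sequence assembled from the reads, and the name is that of its best match among known proteins. *Dsx2* was chosen by its male level: it belongs to the male-biased candidates of the study, which were taken from the unigenes most up-regulated in males against 1 or more of the female stages in these same libraries and then screened by qPCR. Its difference between males and females is therefore given below as a description with no test, and only the differences among the female stages were tested. The choice did not compare the female stages with one another. It did use the level of each female stage against males, so these tests are not fully independent of it.

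The doublesex genes encode transcription factors with a DM domain, a zinc-binding fold that recognises DNA and is shared with the Dmrt proteins of vertebrates. In *Drosophila*, doublesex is spliced differently in the sexes and directs somatic sexual differentiation. In *Daphnia*, sex follows the environment rather than a sex chromosome, so a mother can produce daughters and sons of the same genotype. In *D. magna*, the paralogue *Dsx1* is needed for the male phenotype.

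The stages were the juvenile female (JF), the parthenogenetic female (PF), the sexual female (SF) and the male (M), with 2 libraries each, all of *D. sinensis* from a lake-derived culture of parthenogenetic females fed a green alga, with no agent added. A library was made from a pool of whole animals, about 500 juvenile females, 50 females for PF and for SF, or 60 males. JF were under 12 h old and came from mothers kept singly, whereas PF, SF and M came from beakers with 10 mothers, and the labels give them an age of 2 to 3 weeks. For males the methods also name an age within 12 h of birth, and say that male juveniles were collected and reared apart for 2 weeks. Age and rearing therefore cannot be told apart from stage where JF or M are compared. PF carried their first eggs and SF carried resting eggs, and the sources do not say whether these were removed before extraction. Genotype and clone are not stated, nor is whether the 2 male libraries came from separate beakers, so the spread between replicates may be partly technical. In whole animals, fewer cells of a type and less RNA per cell cannot be told apart.

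The libraries held between 17172891 and 27160267 counts. Levels are given as counts per 1000000 counts (CPM). Among unigenes above 20 CPM, the spread of the log2 ratio of the replicates (median absolute deviation, scaled to an SD) was 0.06 in M and from 0.19 to 0.30 in the female stages, so the male libraries lay far closer together. They still differed by more than counting noise, with a chi-square of 1.89 per degree of freedom, and were kept as 2 libraries. The sources name only male-biased unigenes, so no marker of females could be used to check the labels, and *Dsx2*, chosen for its sex difference, is no independent check.

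The only sequences of *Dsx2* in the sources are its qPCR primers, which define the stretch of the unigene that the study amplified. They are shown with those of Cluster-5789.697, an uncharacterized unigene whose profile across the libraries was nearest to that of *Dsx2*. All are written 5′ to 3′, and capitals mark the last 5 bases, the end from which the polymerase extends.
*Dsx2* forward: atagcattgaatcctgTGAAG
*Dsx2* reverse: cataccttgtgaccTCTGA
Cluster-5789.697 forward: cacaacagcctctATTGC
Cluster-5789.697 reverse: tcgtacacttgacCTTCC

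The *Dsx2* primers are 21 and 19 bases long, with a GC content of 38.1% and 47.4%, and those of Cluster-5789.697 are 18 bases long with 50.0% GC each. No genome of the species was used here and 0 of the unigene IDs matched the reference gene table, so the position of *Dsx2* in the genome is not given.

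*Dsx2* was abundant in males and low, but measured, in every female library. In the male libraries it had estimated counts of 5268.17 (replicate 1) and 4180 (replicate 2). In the 6 female libraries the counts were 108 and 109 in JF, 85 and 109 in PF, and 87 and 82 in SF. No female library was at or near 0, so the measured profile is one of strong male bias over a low female level. The list holds only unigenes with a value above 0 in every library. Whether the reads in the female libraries came from female tissue was not tested.

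Scaled by edgeR's TMM factors, the male libraries had 227.9 and 220.6 CPM, a mean of 224 ± 5.22 (SD, n = 2). The JF libraries had 5.65 and 4.06 CPM (4.85 ± 1.13), the PF libraries 3.45 and 5.90 (4.68 ± 1.73) and the SF libraries 4.03 and 3.91 (3.97 ± 0.0889, SD, n = 2 libraries each). Both male libraries stood above all female libraries with a wide gap, while the 3 female stages overlapped. The order of the means was M, JF, PF and SF, and the differences between neighbours among the female stages were within the spread of the replicates. Of the 11114 listed unigenes, 14.3% also had both male libraries above every female library. *Dsx2* was chosen for such a pattern, so nothing is read from that share.

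Over the 12 pairs of a male and a female library, the male level was between 37.4 and 66.0 times the female level. The lowest ratio was that of M replicate 2 over PF replicate 2, and the highest that of M replicate 1 over PF replicate 1, so both ends were set by the PF libraries. From the stage means, the male level was 46.2 times that of JF, 48.0 times that of PF and 56.5 times that of SF. Of the summed CPM of *Dsx2* over the 8 libraries, 94.3% lay in the 2 male libraries.

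**Figure D1:**
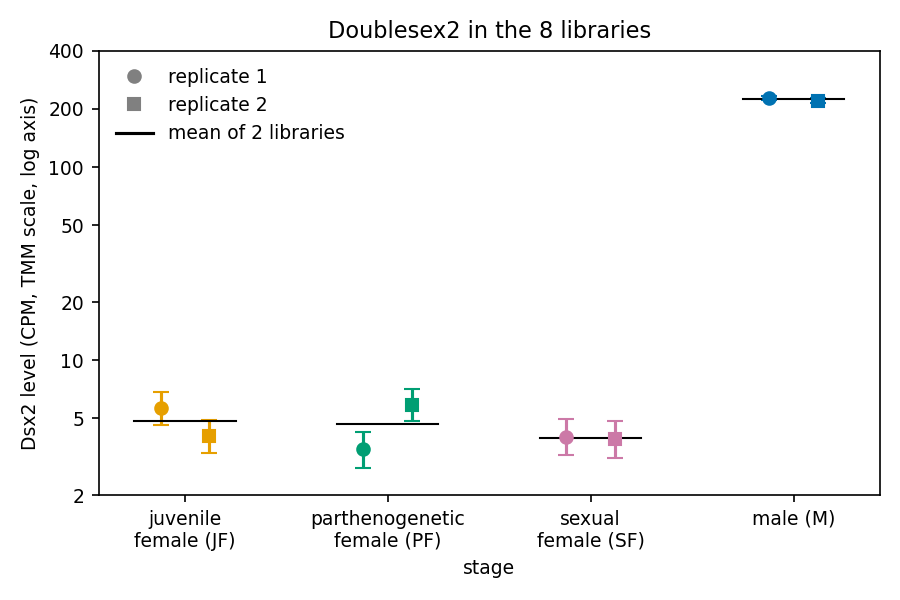
Level of *Dsx2* in CPM on the TMM scale (log axis) by stage, with a point for each library, the exact Poisson 95% interval of its count as error bar and a line at the mean of 2 libraries. The male libraries lie at 227.9 and 220.6 CPM and all female libraries between 3.45 and 5.90 CPM.

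The counts were deep enough to place the female level well above 0. The exact Poisson 95% interval, which covers counting error only, was 2.76 to 4.27 CPM in PF replicate 1 and 4.84 to 7.11 CPM in PF replicate 2. These intervals did not overlap, so the PF pools differed by more than counting. In JF the intervals were 4.64 to 6.82 and 3.33 to 4.89 CPM, and in SF 3.23 to 4.97 and 3.11 to 4.85 CPM, and they overlapped within each of these stages.

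The replicates of *Dsx2* differed 1.71-fold in PF and 1.39-fold in JF, but 1.03-fold in both SF and M. Each difference was set against those of the unigenes whose stage mean was within 0.5 (log2) of that of *Dsx2*. In PF 86.4% of 940 such unigenes had closer replicates, in JF 74.0% of 843 and in M 73.2% of 779. In SF only 9.06% of 894 were closer. The SF libraries, which differed most over all unigenes, were thus nearly equal for *Dsx2*.

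By count, *Dsx2* ranked 974 and 1014 of 11114 in the male libraries and between 7227 and 8141 in the female libraries. These ranks are on the scale of read counts, not corrected for unigene length, and compare *Dsx2* with other unigenes only in that sense. In the male stage mean 91.1% of the unigenes were lower, against 29.0% in JF, 30.8% in PF and 26.4% in SF. By count, *Dsx2* thus lay high in the male transcriptome (rank 994 of the stage means) and in the lower part of each female one. The median unigene had 23.2 CPM in M and from 19.9 to 23.3 CPM in the female stages.

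The male margin, defined as the log2 of the lowest male library over the highest female library, was 5.22 for *Dsx2*, or 37.4-fold. This was the rank 4 of all 11114 listed unigenes, whose median margin was -0.87. The list holds no value of 0, so a unigene without reads in a female library could not be ranked. The rank was between 3 and 5 when any single library was left out, and 3 or 4 with other scalings. The unigenes with a larger margin were Cluster-5789.9553, named trypsin-7-like protein (5.99), and Cluster-5789.9257 (5.77) and Cluster-5789.8859 (5.23), which have no name in the sources used here. The next below was Cluster-5789.697 (5.06), followed by Cluster-5789.1277 (4.89). Cluster-5789.8859 and *Dsx2* differed by less than the spread between replicates, so their order is not resolved.

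Tau is an index of stage specificity, 0 for equal levels in all stages and 1 for a unigene found in a single stage. It was 0.98 for *Dsx2*, rank 14 of all listed unigenes, against a median of 0.43. Unlike the margin, tau also ranks unigenes specific to a female stage. The rank by tau likewise leaves out any unigene with a value of 0 in a library. Among the 778 other unigenes whose mean male level was within 0.5 (log2) of that of *Dsx2*, 237 had both male libraries above every female library and 2 had a margin of at least 16-fold. The median margin of these 778 unigenes was -0.36, against 5.22 for *Dsx2*. *Dsx2* was chosen by its male level against females, so nothing is read from this difference.

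**Figure D2:**
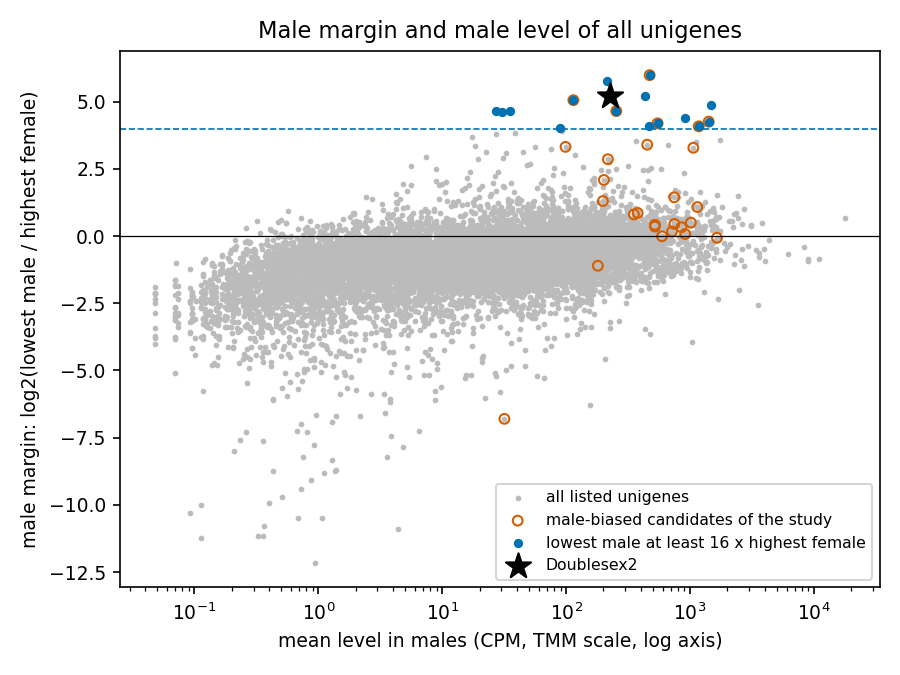
Male margin (log2 of the lowest male over the highest female library) against the mean male level in CPM (log axis) for the 11114 unigenes, with the male-biased candidates of the study circled, the 16 unigenes at or above the dashed line at 4 in blue and *Dsx2* as a star. *Dsx2* lies at 224 CPM and a margin of 5.22.

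The male profile of *Dsx2* was shared by few of the listed unigenes. The study assembled more unigenes than are listed, and the others could not be counted here. A margin of at least 16-fold (4 on the log2 scale) was found for 16 unigenes including *Dsx2*, which is 0.144% of those listed. All 16 passed the filter on low counts. In the opposite direction, with every female library at least 16 times the highest male library, there were 16 unigenes as well. Just inside the limit was Cluster-5789.1175 with a margin of 4.04, and just outside was Cluster-5789.846 with 3.92, so the limit cuts through a continuous range. A limit of 8-fold gave 34 unigenes and one of 32-fold gave 5, and *Dsx2* passed both.

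The 15 others covered a wide range of levels. Their mean male levels, with *Dsx2* included, ran from 27.2 to 1468 CPM with a median of 343 CPM, and 9 were above *Dsx2* in males and 6 below. The lowest level in any female library was 0.523 CPM and the highest 73.4 CPM. The female levels of some, such as Cluster-5789.11701 in SF, were thus above that of the median unigene, unlike those of *Dsx2*. In 0 of the 16 were all female libraries under 1 CPM, and 0 had a female library with 3 counts or fewer. Since the list holds no value of 0, a unigene wholly absent from females could not appear among the 16.

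Of the 15 others, 6 belong to the male-biased candidates of the study. They include 3 that are named as trypsin-7 or trypsin-7-like, Cluster-5789.9553, Cluster-5789.9554 and Cluster-5789.3677, which belong to a family of secreted digestive proteases whose reads can be split between similar copies, so their single values are uncertain. The others are uncharacterized, namely Cluster-5789.697, Cluster-5789.11701 and Cluster-5789.2177. The remaining 9 have no name in the sources used here. *Dsx2* is itself named for a transcription factor, and what kind of protein the unnamed and uncharacterized unigenes encode is not known here.

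Likeness to *Dsx2* was measured over the 8 libraries as the root mean square difference of log2 CPM, with each unigene taken relative to its own male mean, so that a value of 0 means the same male to female ratio in every library. This distance was 0.35 for the nearest unigene and 0.91 for the unigene at place 10, against a median of 5.02 over all tested unigenes. Of the 10 nearest, 9 had a margin of at least 16-fold and 2 were male-biased candidates of the study. Pearson correlations of log2 CPM with *Dsx2* were from 0.965 to 0.990 among these 10. They rest on 8 libraries in which the male and female levels form separate clusters, and are given as a description.

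The nearest unigene was Cluster-5789.697, with a distance of 0.35. It had 109 and 119 CPM in M, 2.83 and 3.28 in JF, 2.36 and 2.22 in PF, and 2.36 and 1.57 in SF. Like *Dsx2* it had its highest female mean in JF and its lowest in SF, at a lower male level, but unlike *Dsx2* both its JF libraries lay above the PF and SF libraries. Its change in SF vs JF was -0.63 on the log2 scale (standard error 0.21, edgeR adjusted p = 0.0359), short of the fold limit for a call. It is uncharacterized, and no function is given for it.

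Cluster-5789.8859 followed with a distance of 0.54. It had 431 and 433 CPM in M, 7.43 and 5.36 in JF, 8.70 and 11.5 in PF, and 4.08 and 4.19 in SF, so its male level was above that of *Dsx2* and its female libraries were highest in PF. Cluster-5373.0 was the third, with a distance of 0.55 at a much lower level. Its male libraries had 28.5 and 26.0 CPM and its female libraries 0.523 to 1.03 CPM, where 10 counts were the fewest. At such counts its female values carry a large counting error.

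The other 7 of the 10 were, in order of distance, Cluster-5789.11797 (0.60), Cluster-5789.1277 (0.68), Cluster-5789.9554 (0.70), Cluster-6198.0 (0.73), Cluster-5789.12136 (0.80), Cluster-5789.9691 (0.84) and Cluster-5789.1290 (0.91). Their mean male levels ran from 27.4 CPM in Cluster-5789.12136 to 1468 CPM in Cluster-5789.1277. Cluster-5789.12136, with a margin of 3.80, was the only one of the 10 under the 16-fold limit. Some had the ratio of *Dsx2* on average but less even females: Cluster-5789.1277 had 49.6 and 33.6 CPM in JF but 37.6 and 8.49 in SF. Ranking by Pearson correlation instead of distance kept 5 of the 10, so the list depends on the measure of likeness.

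**Figure D3:**
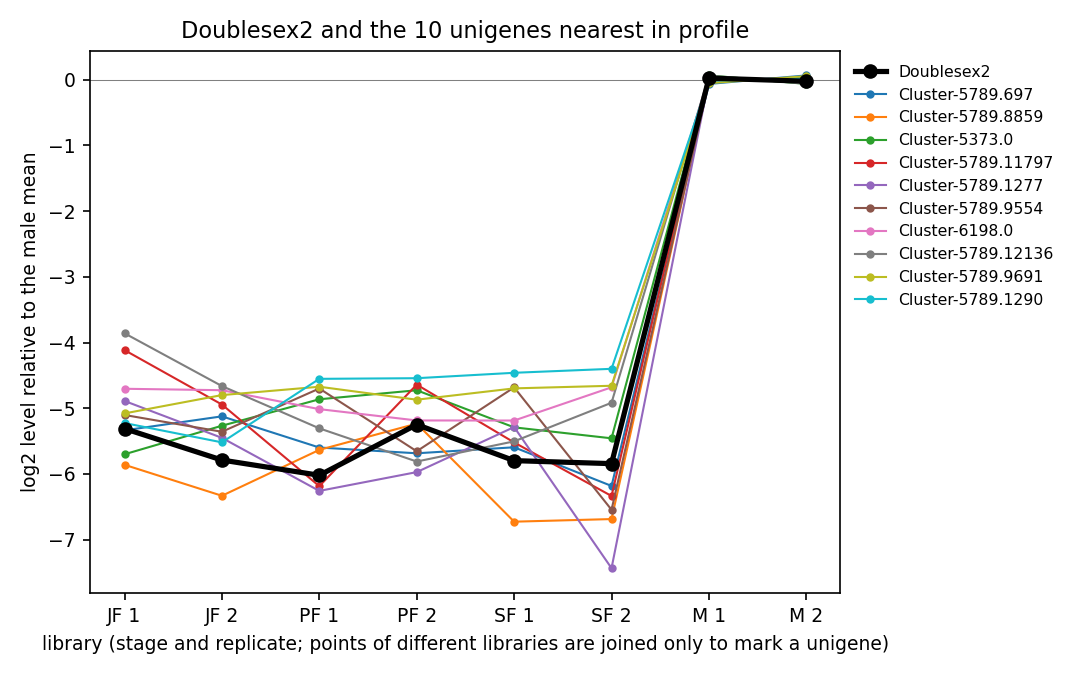
Log2 level in each of the 8 libraries relative to the male mean of the same unigene, for *Dsx2* (black) and the 10 unigenes nearest to it. The female libraries of *Dsx2* spread over 0.77 log2 units. Those of Cluster-5789.1277 and Cluster-5789.11797 spread over 2.55 and 2.22, but those of Cluster-5789.9691 and Cluster-6198.0 over only 0.42 and 0.51.

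The female stages were compared with one another in edgeR's quasi-likelihood test, in a single fit over the 10822 unigenes that passed the filter, and a call needed an adjusted p under 0.05 with a log2 fold change over 1 in either direction. *Dsx2* was called in none of the 3 comparisons. Its log2 fold change was -0.06 in PF vs JF (standard error 0.27, 95% interval -0.70 to 0.59, edgeR adjusted p = 0.869). In SF vs PF it was -0.23 (standard error 0.27, interval -0.88 to 0.43, edgeR adjusted p = 0.569), and in SF vs JF -0.28 (standard error 0.27, interval -0.93 to 0.37, edgeR adjusted p = 0.395). None of the differences was larger than the spread between replicates. The intervals do not exclude changes of up to 0.93 on the log2 scale, in a fit whose estimate of the spread also uses the male libraries. With the 6 female libraries alone the intervals were wider. They were -0.88 to 0.77 in PF vs JF, -1.06 to 0.60 in SF vs PF and -1.11 to 0.54 in SF vs JF. Differences among the female stages of about the size needed for a call were thus not excluded with 2 libraries a stage.

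Calls were frequent in these comparisons. Of all tested unigenes, 17.2% were higher and 21.6% lower in PF than in JF, 9.98% were higher and 4.84% lower in SF than in PF, and 19.0% were higher and 18.6% lower in SF than in JF. The sign of the *Dsx2* change in PF vs JF turned to 0.33 without PF replicate 1, and that in SF vs PF to 0.20 without PF replicate 2, since the PF libraries lay on both sides of those of the other stages. In all alternatives *Dsx2* stayed without a call, with adjusted p of at least 0.109.

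*Dsx2* was even across the female libraries when compared with unigenes of a similar female level. Its highest female library was 1.71 times its lowest, or 0.77 on the log2 scale. Of the 854 unigenes, *Dsx2* included, whose mean female level was within 0.5 (log2) of that of *Dsx2*, 12.1% had a smaller range, and their median range was 1.70. This range covers juvenile females as well as adults of both reproductive modes. Of the 16 unigenes with a margin of at least 16-fold, 2 had a smaller range than *Dsx2*, Cluster-5789.9691 (0.42) and Cluster-6198.0 (0.51).

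Among the 15 other unigenes of at least 16-fold margin, 11 were, like *Dsx2*, called in no female comparison, and 4 (26.7%) were called in 1 or more, against 52.0% of all tested unigenes. In PF vs JF 0 were called up and 2 down, in SF vs PF 2 up and 1 down, and in SF vs JF 1 up and 0 down. Here 2 of the 15 are 13.3% and 1 is 6.67%, against the 17.2% up and 21.6% down, 9.98% up and 4.84% down, and 19.0% up and 18.6% down of all tested unigenes. Their median log2 fold changes were 0.14, 0.12 and 0.07, against -0.08, 0.02 and 0.08 over all tested unigenes. The margin is taken against the highest female library, so it disfavours unigenes that are high in 1 female stage. For that reason, and with only 15 unigenes, these shares carry no more than a description.

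Those called were 4 unigenes. Cluster-5789.11701, an uncharacterized protein, was higher in SF than in PF and JF, with 73.4 and 44.3 CPM in SF, 16.7 and 16.5 in PF, and 17.3 and 10.9 in JF (log2 fold changes 1.82 and 2.07, edgeR adjusted p = 0.00744 and 0.00149). Cluster-5789.9257 was lowest in PF, with 1.59 and 1.03 CPM against 3.19 and 2.83 in JF and 3.66 and 3.86 in SF (log2 fold change -1.18 in PF vs JF, edgeR adjusted p = 0.00253, and 1.50 in SF vs PF, edgeR adjusted p = 0.00366). The call in PF vs JF was lost without PF replicate 2, with a log2 fold change of -0.92, and that in SF vs PF when the 4 compared libraries were fitted alone (log2 fold change 1.51, edgeR adjusted p = 0.0583). The male margin was 4.26 for Cluster-5789.11701 and 5.77 for Cluster-5789.9257, against 5.22 for *Dsx2*. Both unigenes passed the 16-fold limit but were called between female stages, where *Dsx2* was not.

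Cluster-5789.8859 fell from PF to SF by 1.28 on the log2 scale (edgeR adjusted p = 0.00605), a call that was lost when the 4 compared libraries were fitted alone (edgeR adjusted p = 0.0573). The trypsin-7 unigene Cluster-5789.3677 had 63.2 and 67.9 CPM in JF but 13.0 and 6.82 in PF (log2 fold change -2.72, edgeR adjusted p = 0.00705).

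**Figure D4:**
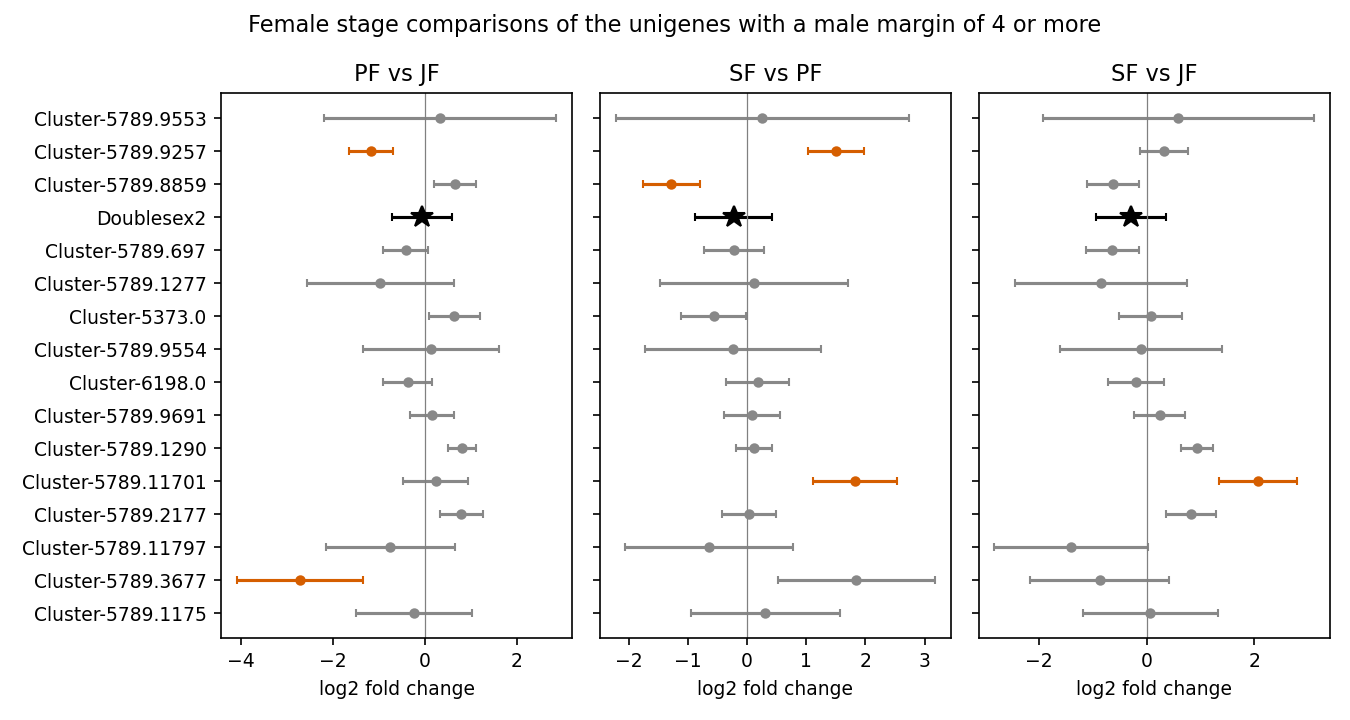
Log2 fold change with its 95% interval in PF vs JF, SF vs PF and SF vs JF for the 16 unigenes with a male margin of at least 4, ordered by margin, with calls in orange and *Dsx2* as a black star. The interval of *Dsx2* includes 0 in each panel (-0.70 to 0.59, -0.88 to 0.43 and -0.93 to 0.37).

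*Dsx2* was then placed among the male-biased candidates of the study, the only unigenes with names. Of these 36 unigenes 28 are listed and 8 were not analysed here, and other genes of the sex-determining pathway, *Dsx1* and *transformer* among them, were not analysed here. *Dsx2* had the rank 2 of the 28 by male margin, after Cluster-5789.9553, but only the rank 21 by mean male level. The median margin of the list was 1.19, its range -6.80 to 5.99, and in 24 of the 28 each male library exceeded all female ones. The list was chosen on these libraries, and these values describe it.

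*Dsx2* had a more even female profile than most of the list. It had the smallest range over the female libraries of all 28 (0.77 on the log2 scale), next to 0.78 in the uncharacterized Cluster-5789.1615, while the median range of the list was 4.05 and the largest 9.52. Of the 28, 6 (*Dsx2* included) were called in no female comparison and 22 (78.6%) in 1 or more, against 52.0% of all tested unigenes. In SF vs PF 15 were called up and 2 down, or 53.6% and 7.14%, against 9.98% and 4.84% of all tested unigenes. In SF vs JF 15 were called up and 5 down (53.6% and 17.9%, against 19.0% and 18.6%), and in PF vs JF 4 up and 13 down (14.3% and 46.4%, against 17.2% and 21.6%). Candidates came from comparisons of males with each female stage, so a low level in 1 stage could bring a unigene in. That choice favours unigenes that differ among the female stages. Nothing is therefore read from these shares or from the wide female ranges of the list.

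The contrast is large beside chitin synthase 2 (Cluster-5789.11830), named for an enzyme that makes chitin and less even in females than the median candidate. It had 520 CPM in each male library, but 388 and 140 in SF, 66.8 and 58.4 in JF, and 6.79 and 7.30 in PF, a range of 5.84 on the log2 scale over the female libraries. *Dsx2* at its highest female library was at 2.63% of its male mean. Some candidates were closer to *Dsx2*, such as Cluster-5789.697 with a female range of 1.06 and Cluster-5789.2177 with 1.21. The median of the list was 4.05.

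**Figure D5:**
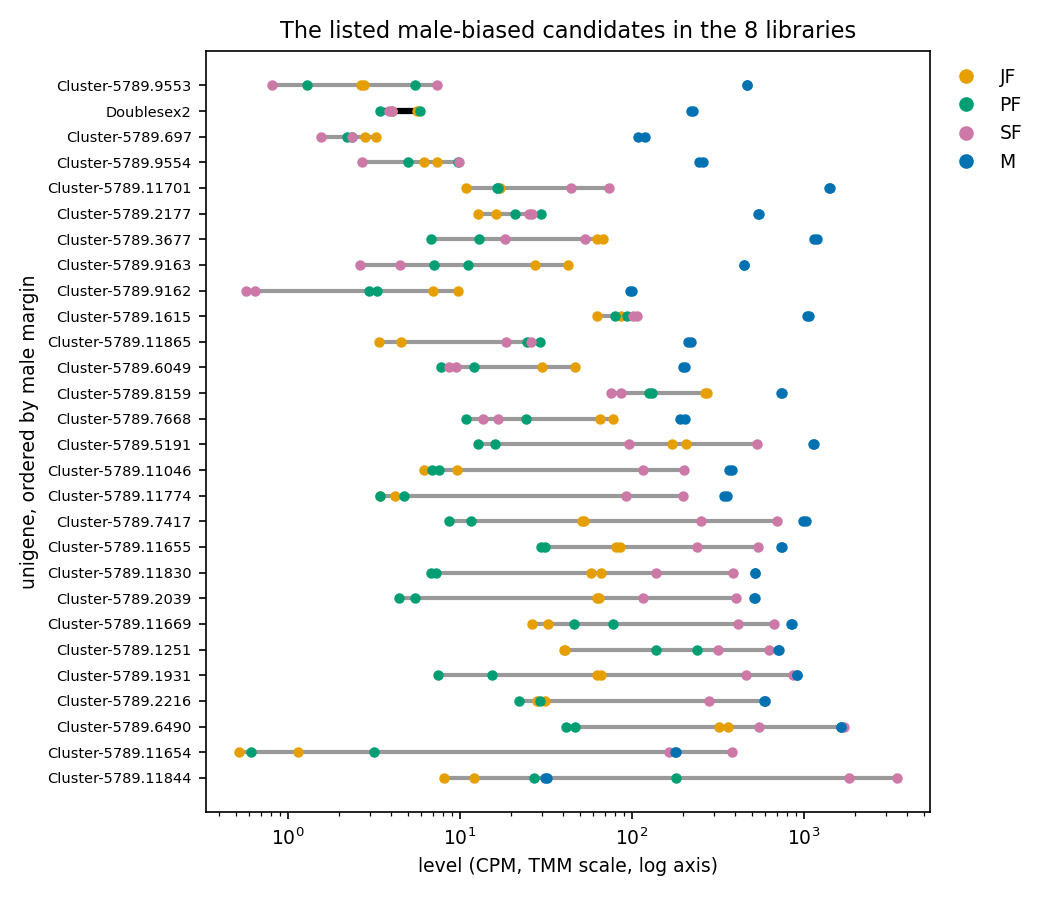
Levels in CPM (log axis) of the 28 listed male-biased candidates in the 8 libraries, ordered by male margin, with a point for each library and a bar from the lowest to the highest female library. The bar of *Dsx2* (black) runs from 3.45 to 5.90 CPM and is the shortest of the 28.

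The female level of *Dsx2* was also compared with the lowest levels that the female libraries reached for other unigenes abundant in males. In the 6 female libraries *Dsx2* had from 1.54% to 2.63% of its male mean. Of the 2285 unigenes with at least 100 CPM in males, between 6 and 81 had a smaller share than *Dsx2* in a given female library. The smallest share was 0.0492% in PF replicate 1 (Cluster-5789.9084, with 0.854 CPM there and 1735 CPM in males) and 0.586% in SF replicate 1 (Cluster-5789.9163). Each lowest share is a minimum over the 2285 unigenes, so nothing is read from *Dsx2* lying above it.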

How the data were processed

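Reads of poly-A RNA, sequenced in paired ends on an Illumina HiSeq, were cleaned and assembled with Trinity by the authors. The authors deposited estimated counts per unigene and library, unscaled. The program that counted the reads was not given in the sources used here. A list of 11114 unigenes, with 0 values at 0, was common to the 8 libraries. Between 56.8% and 63.8% of a library's values were whole, to within 1e-06.

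The counts were rounded for testing, scaled by TMM and fitted in edgeR 4.0.16 (R 4.3.3, limma 3.58.1) for its quasi-likelihood test (robust, stage as the only term, 4 residual degrees of freedom) on the 10822 unigenes kept by its filter by stage. P-values were adjusted by the Benjamini-Hochberg method over all of these. The thresholds are those of the study's methods, and DESeq2 1.42.0 was run as an alternative because the package named there can be read as DESeq2. Levels and ranks used the deposited values without rounding. Standard errors are the log2 fold change divided by the square root of F. The fits were tested on simulated data.

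Unigenes were named by rule: *Dsx2*, the 10 nearest in profile, the 5 with the largest margin, candidates of at least 16-fold margin, the neighbours in margin, and those of the profile called in a female comparison. Cluster-5789.846, Cluster-5789.1175, Cluster-5789.1615, Cluster-5789.9084, Cluster-5789.9163 and Cluster-5789.11830 were chosen after their values were seen. *Dsx2*, the candidate list and the tests were chosen with earlier results of these data known. Alternatives covered scaling, filters, DESeq2, fewer libraries, the replicate block, pseudocounts, limits of the margin and each library left out. The qPCR values were not analysed here.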

Additional observations from a re-analysis of the deposited data

How the results depend on the processing

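*Dsx2* was called in no female comparison under any of the 16 alternatives of each. Its log2 fold change in PF vs JF turned to 0.0496 in edgeR on the 4 compared libraries and ran from -0.48 to 0.33 with each library left out. In SF vs PF it ran from -0.52 to 0.20 and in SF vs JF from -0.51 to -0.03 with each library left out. With the replicate block it was -0.06, -0.22 and -0.29. The replicate numbers of the labels mark no shared pool, and the differences between replicates 1 and 2 correlated between stages only from -0.03 to 0.12. The number of unigenes called in SF vs PF was 1604, and 709 in edgeR on the 4 compared libraries. The mean male level was 236 CPM with DESeq2 size factors and 217 CPM with total counts alone, more than the replicate spread away from 224 CPM, while the margin stayed between 5.07 and 5.31 under all its alternatives. The 16 unigenes of at least 16-fold margin became 34 at 8-fold and 5 at 32-fold, and 16 to 19 with each library left out. Of the 10 nearest unigenes, 5 remained by Pearson correlation and 8 to 10 with each library left out. With 82 to 109 counts in the female libraries, counting error and 2 pools per stage limit what can be said of female differences.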

Other observations

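The estimated count of *Dsx2* was a whole number in 7 of the 8 libraries and had a fraction only in M replicate 1 (5268.17). Estimated counts carry fractions where a program divides a read between unigenes. Whether reads were divided with *Dsx1* was not tested.

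Of the 16 unigenes with a male margin of at least 16-fold, 14 carry the ID of the large assembly cluster that holds *Dsx2*, as do 10461 of the 11114 listed unigenes. The other two are Cluster-5373.0 and Cluster-6198.0. The IDs of a single pair follow each other directly, those of the trypsin-7 unigenes Cluster-5789.9553 and Cluster-5789.9554. The highest female mean was that of SF in 7 of the 16, of JF in 6, *Dsx2* among them, and of PF in 3.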
